A study of Mus musculus with 4 samples.

Results

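Amino acids enter, leave and move within cells through several families of membrane carriers. The genes described here are the 63 mouse genes, of 23990 in the deposited tables, whose symbol begins with Slc1a, Slc3a, Slc6a, Slc7a, Slc36a, Slc38a or Slc43a and a number, with Slc7a11 left out. The rule reads the symbol alone. It takes in carriers of the Slc6 family that move transmitters, taurine, betaine or creatine, and 3 opposite-strand entries, Slc7a6os, Slc36a1os and Slc6a19os, that are named after a carrier without being one.

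RNA was sequenced from alveolar type 1 (AT1) cells, the thin, flat cells across which the lung exchanges gas, to ask how expression of the transcription factor Sox2 alters them. The cells were sorted from littermate mice of a mixed B6 and 129 background at postnatal day 3 or 4. All animals carried Scnn1a-Cre, so that recombination takes place in cells in which Scnn1a, an epithelial sodium channel gene, drives Cre. The animals labelled Sox2 (2 libraries) were Scnn1a-Cre; Rosa[Sox2/+], with a Cre-dependent Sox2 transgene at the Rosa locus, and those labelled WT (2 libraries) were Scnn1a-Cre; Rosa[mTmG/+], with a membrane reporter at that locus. The labels leave unsaid whether the 2 libraries of a group are separate animals, so p-values measure the spread between these libraries, which may be technical.

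Most of these carriers are exchangers or are coupled to sodium or protons. The Slc7 light chains (LAT and y+LAT proteins) reach the cell surface only when linked by a disulfide bond to a heavy chain, Slc3a2 (also called 4F2hc or CD98) or Slc3a1, and trade one amino acid for another. Sodium-coupled carriers such as Slc1a5, Slc38a1, Slc38a2 and Slc6a14 bring in glutamine and other neutral amino acids that the exchangers can then use. In the lung, such uptake supplies protein, glutathione and surfactant protein synthesis, and Slc6a14 and Slc1a1 are known from epithelia.

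Sox2, the gene that the labels name, went against them. It stood at 1.41 and 1.99 FPKM (fragments scaled to transcript length and to the mapped fragments of the library) in libraries labelled Sox2 and at 302 and 477 FPKM in libraries labelled WT (limma log2 difference -7.15, SE 0.34, adjusted p = 2.39e-06). Every direction below follows the labels as deposited. The labels may have been exchanged, which was not tested, and in that case every "higher" and "lower" below turns, those of the 4 higher and 4 lower members included. Each library had 11062 to 12096 genes at 1 FPKM or more. Labelled WT replicate 2 stood apart in its small RNA entries, which made up 50.9% of its summed FPKM against 5.76% to 19.3% in the other libraries, and the part of this in the results was not tested. The tables hold no read counts, so depth is unknown, and the median half-width of the authors' bounds around a value, 7.82% to 12.4% of the value per library, is the guide to precision.

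Marker genes of several cell types moved with the labels as well, though the sums of leukocyte and red blood cell markers overlapped between the labels. Of all tested genes, limma called 4.20% higher and 8.11% lower. The summed level of 14 AT1 markers was 8184 to 9674 FPKM in libraries labelled Sox2 and 1034 to 1892 FPKM in libraries labelled WT, with 12 of 14 called higher in limma. For 12 markers of the surfactant-making AT2 cells it was 18516 to 26647 against 1142 to 6460 FPKM, with 11 called higher. For 7 basal cell markers it was 3.15 to 4.16 against 60.3 to 213 FPKM, with 3 of 4 tested called lower and with Krt5, Krt14 and Dapl1 listed at 0 in some libraries and Krt5 and Krt14 at 0.686 FPKM or less in the rest. For 13 genes of dividing cells it was 83.6 to 193 against 407 to 708 FPKM, with 11 called lower. Endothelial markers summed to 136 to 202 against 18.3 to 50.8 FPKM (3 of 12 called higher), leukocyte markers to 63.4 to 134 against 30.7 to 64.2 FPKM (1 of 11), mesenchymal markers to 247 to 480 against 72.3 to 220 FPKM (1 of 11) and red blood cell markers to 273 to 1240 against 74.0 to 334 FPKM (1 of 6). The sums of airway markers separated the labels too, though few of the genes were called. For club cells the sums were 3574 to 6075 against 2071 to 2354 FPKM (1 of 6 tested called higher and 1 lower). For ciliated cells they were 334 to 336 against 71.1 to 139 FPKM (1 of 5 called higher). The part of these cell types in the results below was not tested, and in such bulk libraries fewer cells of a type cannot be told apart from less RNA per cell.

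Of the carriers that moved between the labels, Slc7a7, Slc1a1 and Slc6a14 have a promoter window in the RefSeq table used (GRCm38.p6), which matched 19 of the 28 tested genes. The windows run from 250 bases before to 50 bases after an annotated start site. They are shown because several amino acid carrier genes are known targets of ATF4, a factor induced by amino acid shortage that binds C/EBP-ATF response elements. The letters TGATGNAA were searched on both strands as the core of such an element. They occur in 3.97% of all 32851 windows of this length. Over all windows of a gene they occur in 4.51% of all genes and in 2 of the 19 genes, Slc7a7 and Slc1a4. Slc7a7 (chr14:54417653-54417952, minus strand) holds a match that begins 243 bases before the start, Slc1a4 (chr11:20332664-20332963, minus strand) holds a match that begins 4 bases before it, and Slc1a1 (chr19:28834885-28835184, plus strand), the member with the largest positive difference as labelled, holds no match. A further annotated start of Slc7a7, with the window chr14:54417895-54418194, overlaps the first window and shares that match, 1 base before the further start, and has another that begins 141 bases before it. The windows of the other annotated starts of Slc7a7 hold none, and a gene with more windows has more places for a match. Slc6a14 has none in its window. Each sequence reads 5′ to 3′ on the gene's strand, with the match in capitals.
Slc7a7: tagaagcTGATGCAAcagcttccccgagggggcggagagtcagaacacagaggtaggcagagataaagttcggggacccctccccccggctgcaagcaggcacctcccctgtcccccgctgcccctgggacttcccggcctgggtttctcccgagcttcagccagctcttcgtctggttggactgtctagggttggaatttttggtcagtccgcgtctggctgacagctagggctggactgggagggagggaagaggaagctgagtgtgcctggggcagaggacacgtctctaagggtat
Slc1a4: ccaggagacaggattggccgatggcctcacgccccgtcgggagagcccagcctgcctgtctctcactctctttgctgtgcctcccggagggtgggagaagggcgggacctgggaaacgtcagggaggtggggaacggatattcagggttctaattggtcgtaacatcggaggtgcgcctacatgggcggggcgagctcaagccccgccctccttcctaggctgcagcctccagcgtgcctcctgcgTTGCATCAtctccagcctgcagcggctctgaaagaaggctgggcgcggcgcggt
Slc1a1: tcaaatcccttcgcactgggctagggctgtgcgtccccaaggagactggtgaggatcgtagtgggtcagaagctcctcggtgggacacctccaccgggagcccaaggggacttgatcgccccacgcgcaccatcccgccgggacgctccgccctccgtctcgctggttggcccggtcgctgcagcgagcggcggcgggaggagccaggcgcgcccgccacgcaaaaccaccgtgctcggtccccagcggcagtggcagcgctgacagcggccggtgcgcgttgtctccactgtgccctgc
A second motif, the letters ACAANG of the SOX core searched on both strands, occurs in 41.2% of all windows and, over all windows of a gene, in 9 of the 19 genes against 44.9% of all genes. The motifs do not overlap in their letters, and a match is a description of the sequence, not a bound site.

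Of the 63 genes, 28 averaged 1 FPKM or more across all 4 libraries and were tested, among 12040 genes in all. Levels were compared as log2(FPKM + 1) in limma, and a gene was called at an adjusted p under 0.05 over all tested genes. In libraries labelled Sox2, 4 members were higher, namely Slc1a1, Slc1a5, Slc7a7 and Slc6a14, and 4 were lower, namely Slc7a2, Slc38a1, Slc6a15 and Slc6a6, while 20 did not pass. The 8 called are 28.6% of the tested members, where 12.3% of all tested genes were called. Among the 8, Slc6a15 passed the filter only through the libraries labelled WT, where it was high. By direction, 14.3% were higher against 4.20% of all tested genes, and 14.3% were lower against 8.11%. The median log2 difference, labelled Sox2 minus labelled WT, was -0.13 over the tested members and -0.29 over all tested genes. The values of the 2 labels did not overlap in 18 of the 28 (64.3%, against 58.1% of all tested genes), with libraries labelled Sox2 on top in 6 (15.7% of all tested genes) and those labelled WT on top in 12 (42.5%).

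**Figure D1:**
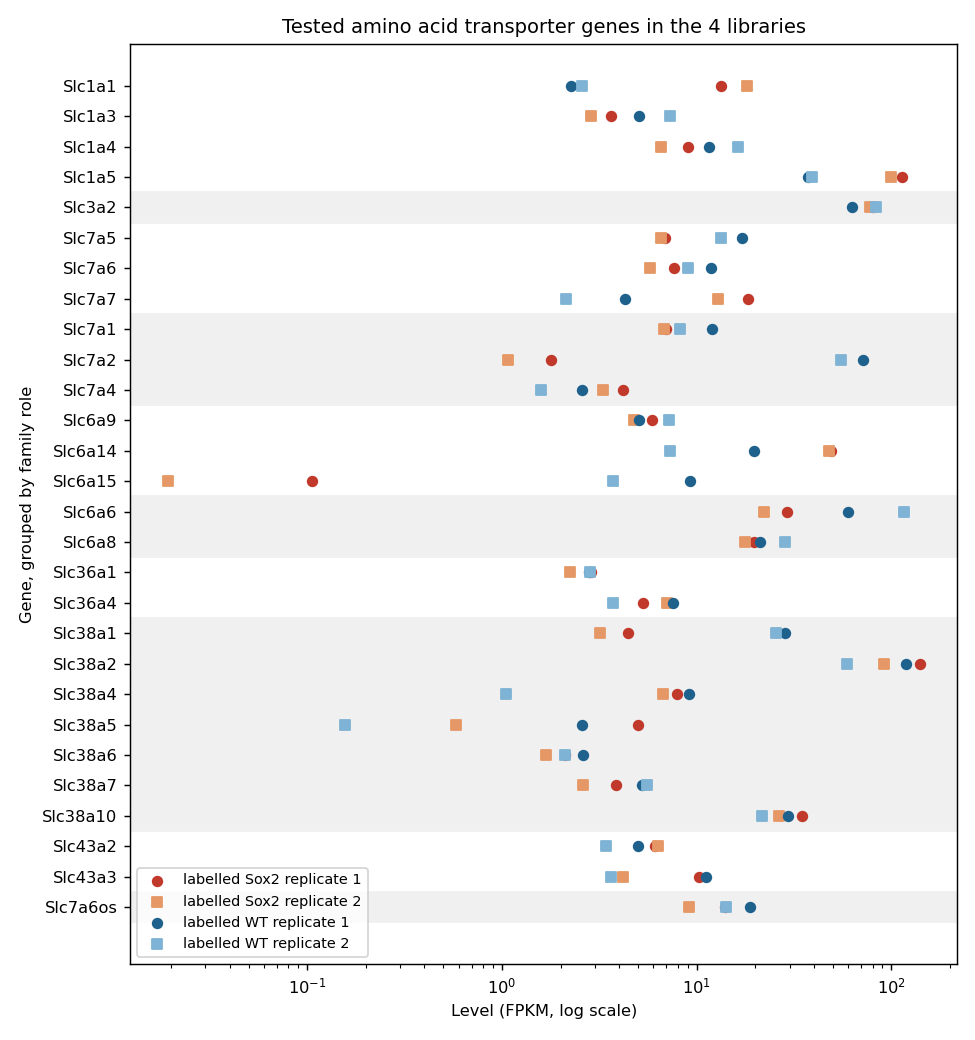
Levels of the 28 tested genes in FPKM on a log axis, with 1 point per library (circles replicate 1, squares replicate 2) and grey bands separating the family roles. The libraries labelled Sox2 lie apart to the right for Slc1a1, Slc1a5, Slc7a7 and Slc6a14 and apart to the left for Slc7a2, Slc38a1, Slc6a15 and Slc6a6, while Slc3a2 and Slc38a2 show mixed libraries.

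The calls depended on single libraries and on the filter. Without labelled Sox2 replicate 1, 4 of the 8 calls were kept (Slc1a1, Slc7a2, Slc38a1 and Slc6a15), and without labelled Sox2 replicate 2 only those of Slc7a2 and Slc38a1 were. With any library left out, a gene's own spread comes only from the label that keeps 2 libraries. A call kept in such a fit is therefore no support. Testing all genes without the filter on low values left 0 of the members called in limma, with 4 higher and 7 lower at an unadjusted p under 0.05. The share of all genes at that unadjusted p is not given here, so these counts are not read as a result. For 1 gene, the smallest p an exact permutation test allows with 2 against 2 libraries is 0.333, so none is reported. Median-of-ratios rescaling moved the median of all tested genes from -0.29 to 0.00, after which 964 genes were called higher and 686 lower in place of 506 and 976. Of the members it called 4 higher and 3 lower, and their median became 0.14.

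The Slc1 family splits into high-affinity glutamate and aspartate carriers and neutral exchangers. Of its 7 members 4 were tested, 2 were higher and none was lower. Slc1a1, the epithelial and neuronal glutamate carrier EAAC1, which also takes up cysteine, stood at 13.3 and 18.1 FPKM in libraries labelled Sox2 and at 2.27 and 2.59 FPKM in libraries labelled WT. The means were 15.7 ± 3.39 and 2.43 ± 0.227 FPKM (SD, n = 2), 6.48-fold apart (limma log2 difference 2.27, SE 0.38, adjusted p = 0.00423). Each library labelled Sox2 thus exceeded each one labelled WT, and the call was lost without labelled Sox2 replicate 2 (adjusted p = 0.107, limma). Slc1a1 lies on chromosome 19, at 28835166 to 28913960 in mm10.

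Slc1a5, the neutral exchanger ASCT2 that imports glutamine, was among the most abundant members. It stood at 113 and 99.3 FPKM in libraries labelled Sox2 and at 37.3 and 39.0 FPKM in libraries labelled WT, a 2.78-fold difference of the means (limma log2 difference 1.45, SE 0.30, adjusted p = 0.0119). The labels were well separated and libraries of a label close to each other, yet the call was lost without labelled Sox2 replicate 1 (adjusted p = 0.0782, limma) or replicate 2 (0.0882). Its relative Slc1a4, the serine and alanine exchanger ASCT1, lay the other way, at 8.98 and 6.54 against 11.5 and 16.3 FPKM, and did not pass (adjusted p = 0.197, limma). The glial glutamate carrier Slc1a3 did not pass either, with 3.65 and 2.87 against 5.03 and 7.28 FPKM. Slc1a2, Slc1a6 and Slc1a7 did not exceed 0.234 FPKM in any library.

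The heavy chain Slc3a2 was among the 3 most abundant members in every library, with 80.1 and 77.9 FPKM in libraries labelled Sox2 and 62.5 and 83.3 FPKM in libraries labelled WT. Its values overlapped between the labels (limma log2 difference 0.13, SE 0.31, adjusted p = 0.827). The other heavy chain, Slc3a1, which pairs with the cystine and dibasic light chain Slc7a9, was at 0.603 FPKM or less and was not tested, and Slc7a9 was listed at 0 in 3 libraries and at 0.128 FPKM in the other.

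Of the 9 light chains 3 were tested, and only Slc7a7 passed. Slc7a7 (y+LAT1), which exports arginine and lysine in exchange for neutral amino acids and sodium, stood at 18.4 and 12.9 FPKM in libraries labelled Sox2. In libraries labelled WT it stood at 4.30 and 2.14 FPKM, so the labels did not overlap. The means, 15.6 ± 3.90 and 3.22 ± 1.53 FPKM (SD, n = 2), were 4.84-fold apart (limma log2 difference 2.01, SE 0.41, adjusted p = 0.0113). The fold ran from 3.63 without labelled WT replicate 2 to 7.30 without labelled WT replicate 1. The call was lost without labelled Sox2 replicate 1 or 2. Its annotated span on chromosome 14, 54369442 to 54417702 in mm10, overlaps that of Oxa1l, a mitochondrial insertase gene. Oxa1l lay the other way, at 11.9 and 11.0 FPKM against 17.1 and 18.4 FPKM. The strand setting of the authors' processing is not given in the sources used here.

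Slc7a5 (LAT1), the importer of leucine and other large neutral amino acids, stood at 6.85 and 6.54 FPKM in libraries labelled Sox2. In libraries labelled WT it was at 17.0 and 13.4 FPKM. The labels did not overlap, but the difference did not pass (limma log2 difference -1.07, SE 0.35, adjusted p = 0.0724). Slc7a6 (y+LAT2), a close relative of Slc7a7, had 7.68 and 5.79 against 11.8 and 9.0 FPKM and did not pass (adjusted p = 0.348, limma). Among the light chains not tested, Slc7a8 (LAT2) and Slc7a10 (asc-1) had at most 0.786 and 1.42 FPKM, and Slc7a12, Slc7a13 and Slc7a15 at most 0.0332 FPKM.

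The light chains that can pair with Slc3a2 therefore summed to similar levels in a different mix. Slc7a5, Slc7a6, Slc7a7, Slc7a8 and Slc7a10, grouped after their values were seen and without Slc7a11, summed to 35.1 and 25.5 FPKM in libraries labelled Sox2 and to 34.3 and 24.7 FPKM in libraries labelled WT. Slc7a7 made up 52.3% and 50.3% of that sum in libraries labelled Sox2 and 12.6% and 8.67% in libraries labelled WT. Slc7a5 made up 19.5% and 25.6% against 49.6% and 54.3%, so that the arginine exporter led in libraries labelled Sox2 and the leucine importer in libraries labelled WT. Slc3a2 exceeded the summed light chains in every library, by 1.82 to 3.37 times.

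**Figure D2:**
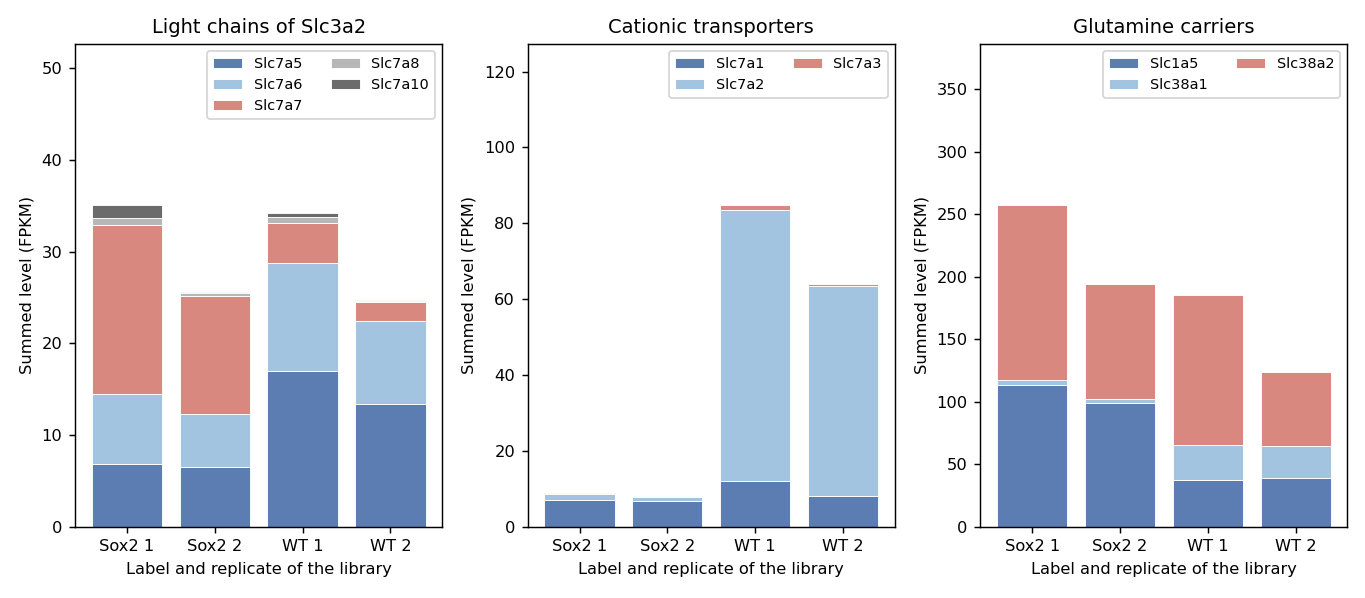
Summed level in FPKM per library of the light chains that can pair with Slc3a2 (left), of the cationic transporters (middle) and of the glutamine carriers Slc1a5, Slc38a1 and Slc38a2 (right), with 1 bar per library named by its label and replicate. Slc7a7 fills 52.3% and 50.3% of the left bars labelled Sox2 and 12.6% and 8.67% of those labelled WT, and Slc7a2 fills 84.2% and 86.4% of the middle bars labelled WT.

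The CAT proteins of Slc7 carry arginine, lysine and ornithine and need no heavy chain. Of 5 members in this group 3 were tested and 1, Slc7a2, was lower. Slc7a2 (CAT2), known to supply arginine to nitric oxide synthase in activated macrophages, stood at 1.78 and 1.07 FPKM in libraries labelled Sox2 and at 71.5 and 55.3 FPKM in libraries labelled WT. The means, 1.42 ± 0.502 and 63.4 ± 11.4 FPKM (SD, n = 2), were 44.5-fold apart, by far the widest gap among members above 1 FPKM under both labels (limma log2 difference -4.74, SE 0.36, adjusted p = 1.16e-04). With each library left out in turn, the fold ran from 35.6 to 59.3. Slc7a2 lies on chromosome 8, at 40862367 to 40922070 in mm10.

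Slc7a1 (CAT1), the widely expressed member, stood at 6.96 and 6.82 FPKM in libraries labelled Sox2 and at 11.9 and 8.20 FPKM in libraries labelled WT. It did not pass (limma log2 difference -0.47, SE 0.37, adjusted p = 0.437). The order of the cationic carriers therefore differed between the labels. Slc7a1 made up 77.1% and 86.4% of the summed level of Slc7a1, Slc7a2 and Slc7a3 in libraries labelled Sox2, and Slc7a2 made up 84.2% and 86.4% in libraries labelled WT. Slc7a4, a relative without known amino acid transport, had 4.19 and 3.31 against 2.59 and 1.59 FPKM and did not pass. Slc7a3 (CAT3) reached 1.44 FPKM in labelled WT replicate 1 and 0.526 FPKM or less elsewhere, and Slc7a14 had at most 0.633 FPKM.

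Carriers of amino acids in the Slc6 family moved in both directions. Of 10 members 3 were tested, with 1 higher, 1 lower and 1 that did not pass. Slc6a14 (ATB0,+), which brings in nearly all neutral and cationic amino acids with sodium and chloride, stood at 48.9 and 48.1 FPKM in libraries labelled Sox2. In libraries labelled WT it was at 19.6 and 7.31 FPKM. The libraries labelled Sox2 were alike and both of those labelled WT were lower, though unequal, with means 3.60-fold apart (limma log2 difference 1.92, SE 0.42, adjusted p = 0.0153). The fold ran from 2.47 without labelled WT replicate 2 to 6.63 without labelled WT replicate 1. The call was lost without labelled Sox2 replicate 1 or 2. In the libraries labelled WT, replicate 1 also had the higher sums of AT1 and AT2 markers, 1892 and 6460 FPKM against 1034 and 1142 FPKM in replicate 2. Sums for ciliated, endothelial, leukocyte, mesenchymal and dividing cells were higher there as well. Those for club, basal and red blood cells went the other way, at 2071, 60.3 and 74.0 against 2354, 213 and 334 FPKM. The part of these cell types in the Slc6a14 values was not tested.

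Slc6a15 (B0AT2), a carrier of branched-chain amino acids and proline known mainly from brain, was nearly silent in libraries labelled Sox2, at 0.106 and 0.0192 FPKM. The authors' bounds for the latter reach from 0 to 0.0749 FPKM. In the libraries labelled WT it was at 9.27 and 3.72 FPKM, well above both. The log2 difference was -2.71 (SE 0.45, adjusted p = 0.00422, limma), with the call lost without labelled Sox2 replicate 2 (adjusted p = 0.0681, limma). The ratio of the means, 104, rests on the low values and ran from 59.5 without labelled WT replicate 1 to 338 without labelled Sox2 replicate 1, with 61.4 without labelled Sox2 replicate 2. Slc6a9, the glycine carrier GlyT1, had 5.92 and 4.79 against 5.05 and 7.18 FPKM, with overlapping labels, and its span overlaps that of Ccdc24, which had 2.38 FPKM or less. The kidney and gut carriers Slc6a18, Slc6a19, Slc6a20a and Slc6a20b, the neuronal Slc6a5 and Slc6a17 and the proline carrier Slc6a7 did not exceed 0.315 FPKM in any library.

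Of the 9 members of Slc6 that carry transmitters, taurine, betaine or creatine, only Slc6a6 and Slc6a8 were tested. Slc6a6 (TauT), the taurine carrier that responds to osmotic stress, stood at 29.2 and 22.3 FPKM in libraries labelled Sox2 and at 59.7 and 117 FPKM in libraries labelled WT. The means were 3.43-fold apart (limma log2 difference -1.67, SE 0.37, adjusted p = 0.0162). The labels did not overlap, but the call was lost under more alternatives than the other 7. It was lost without labelled Sox2 replicate 1 (adjusted p = 0.0506, limma) or 2 (0.156) and under median-of-ratios rescaling (0.0903) and quantile normalization (0.0745). Slc6a8, the creatine carrier, had 19.6 and 17.6 against 21.1 and 28.4 FPKM and did not pass (adjusted p = 0.483, limma). The serotonin carrier Slc6a4, known from lung endothelium, had at most 0.348 FPKM, and Slc6a2, Slc6a3, Slc6a11, Slc6a12 and Slc6a13 at most 0.170 FPKM.

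**Figure D3:**
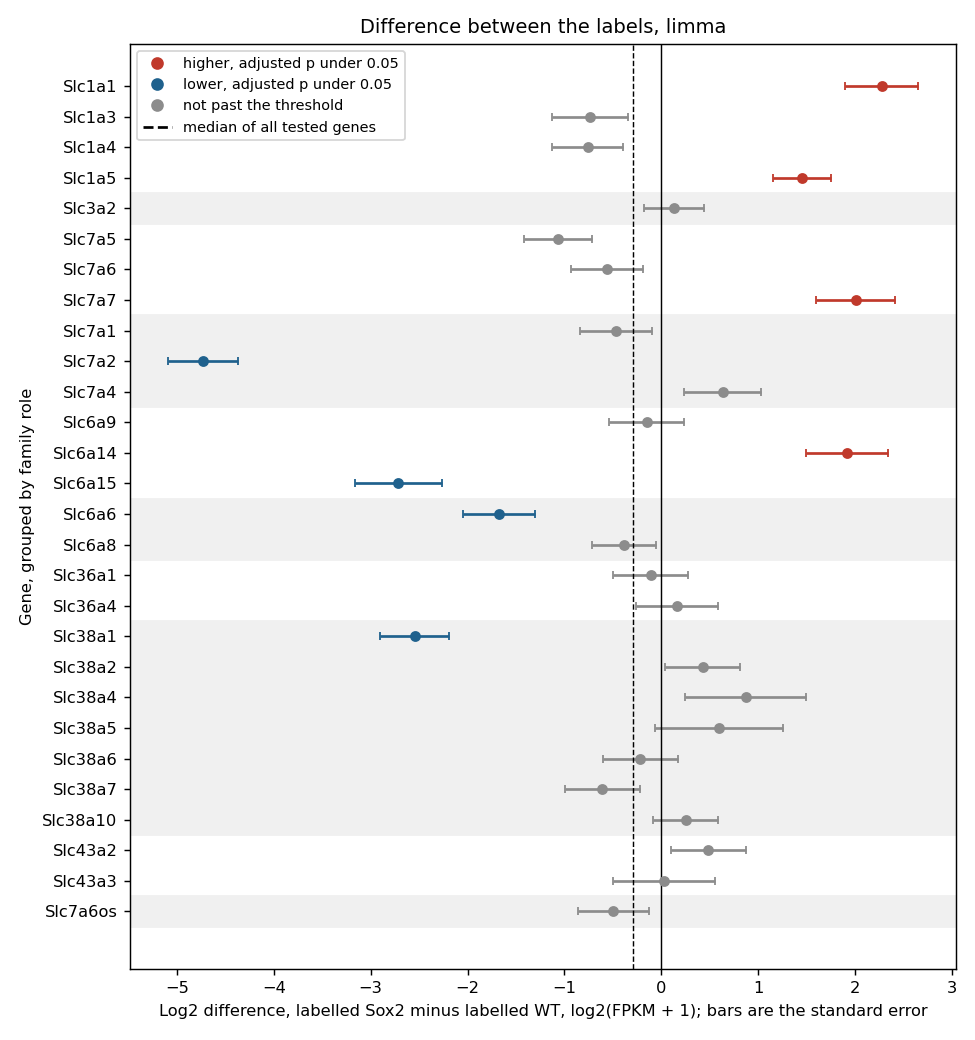
Log2 difference on the log2(FPKM + 1) scale for the 28 tested genes, labelled Sox2 minus labelled WT, with its standard error as a bar and the median of all tested genes (-0.29) as a dashed line. The 4 genes called higher lie between 1.45 and 2.27, the 4 called lower between -4.74 and -1.67, and the other 20 within 1.07 of 0.

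Slc38 carriers (SNATs) bring in glutamine, alanine and serine with sodium, at the cell surface or from the lysosome. Of 11 members 7 were tested, and 1 was lower. Slc38a1 (SNAT1) stood at 4.43 and 3.18 FPKM in libraries labelled Sox2 and at 28.3 and 25.5 FPKM in libraries labelled WT. The means, 3.81 ± 0.890 and 26.9 ± 2.02 FPKM (SD, n = 2), were 7.07-fold apart (limma log2 difference -2.55, SE 0.36, adjusted p = 0.00180). The fold ran from 6.06 to 8.46 with each library left out in turn.

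Slc38a2 (SNAT2), which cells raise when amino acids run short, was the most abundant member in 2 libraries. It stood at 140 and 92.0 FPKM in libraries labelled Sox2 and at 119 and 59.1 FPKM in libraries labelled WT, with overlapping labels (limma log2 difference 0.43, SE 0.39, adjusted p = 0.503). Slc38a1, Slc38a2 and Slc38a4 are neighbours on chromosome 15, with 44478 bases between the spans of Slc38a1 and Slc38a2 and 295124 bases between those of Slc38a2 and Slc38a4. Of these neighbours only Slc38a1 passed. Slc38a4, the amino acid carrier of liver and placenta, had 7.97 and 6.76 against 9.18 and 1.04 FPKM, where the last value, in labelled WT replicate 2, stands apart. The fold of Slc38a4, labelled Sox2 over labelled WT, was 7.06 without labelled WT replicate 1 and 0.802 without labelled WT replicate 2.

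The other Slc38 members differed little between the labels or varied within them. Slc38a10, an intracellular member, had 34.8 and 26.4 against 29.6 and 21.6 FPKM (limma adjusted p = 0.667). Slc38a7, a lysosomal glutamine exporter, had 3.86 and 2.61 against 5.23 and 5.54 FPKM (adjusted p = 0.331, limma), and Slc38a6 ranged from 1.68 to 2.62 FPKM over the 4 libraries. Slc38a5 (SN2), a glutamine carrier that works in both directions, had 5.01 and 0.578 against 2.59 and 0.156 FPKM and did not pass (adjusted p = 0.594, limma). The fold of Slc38a5, labelled Sox2 over labelled WT, ran from 0.421 without labelled Sox2 replicate 1 to 18 without labelled WT replicate 1. Slc38a9, the lysosomal arginine sensor of the growth kinase complex mTORC1, had 1.16 and 0.569 against 1.16 and 0.513 FPKM and fell short of the filter. Slc38a3, Slc38a8 and Slc38a11 had at most 0.184 FPKM.

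Glutamine can enter through Slc1a5, Slc38a1 and Slc38a2. Slc38a2 held 54.4% and 47.3% of their summed level in libraries labelled Sox2 and 64.5% and 47.8% in libraries labelled WT. Slc1a5 held 43.9% and 51.1% against 20.2% and 31.6%, and Slc38a1 1.72% and 1.63% against 15.3% and 20.6%. The shares of Slc1a5 and Slc38a1 did not overlap between the labels, and those of Slc38a2 did. These genes were grouped after their values were seen and their shares carry no test.

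Neither the proton-coupled Slc36 nor the Slc43 carriers passed. Slc36a1 (PAT1), the lysosomal exporter of small neutral amino acids, ranged from 2.24 to 2.85 FPKM and Slc36a4 from 3.73 to 7.52 FPKM, each with overlapping labels. Slc36a2 reached 1.07 FPKM in labelled Sox2 replicate 1 and 0.661 FPKM or less elsewhere, and Slc36a3 had at most 0.0946 FPKM. Slc43a2 (LAT4), a facilitator of large neutral amino acids, had 6.11 and 6.36 against 5.02 and 3.43 FPKM (limma log2 difference 0.49, adjusted p = 0.439). Slc43a3, a nucleobase carrier by current knowledge, had 10.2 and 4.20 against 11.1 and 3.65 FPKM, and Slc43a1 (LAT3) at most 0.328 FPKM. Of the opposite-strand entries, Slc7a6os had 14 and 9.09 against 18.8 and 14.2 FPKM (adjusted p = 0.400, limma), Slc36a1os at most 0.603 FPKM, and Slc6a19os was listed at 0 in all libraries.

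In all, 35 of the 63 genes fell under the filter, of which 31 did not reach 1 FPKM in any library and 7 were listed at 0 in all of them. The summed level of all 63 was 614 and 499 FPKM in libraries labelled Sox2 and 602 and 548 FPKM in libraries labelled WT, with overlapping labels. The order within that sum differed. In libraries labelled Sox2, Slc38a2, Slc1a5, Slc3a2 and Slc6a14 were the 4 most abundant. In libraries labelled WT, Slc7a2 and Slc6a6 joined Slc38a2 and Slc3a2, and Slc1a5 ranked 5 with 6.20% and 7.13% of the sum, against 18.4% and 19.9%. Slc38a2 led in labelled Sox2 replicate 1 and labelled WT replicate 1, Slc1a5 in labelled Sox2 replicate 2 and Slc6a6 in labelled WT replicate 2.

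**Figure D4:**
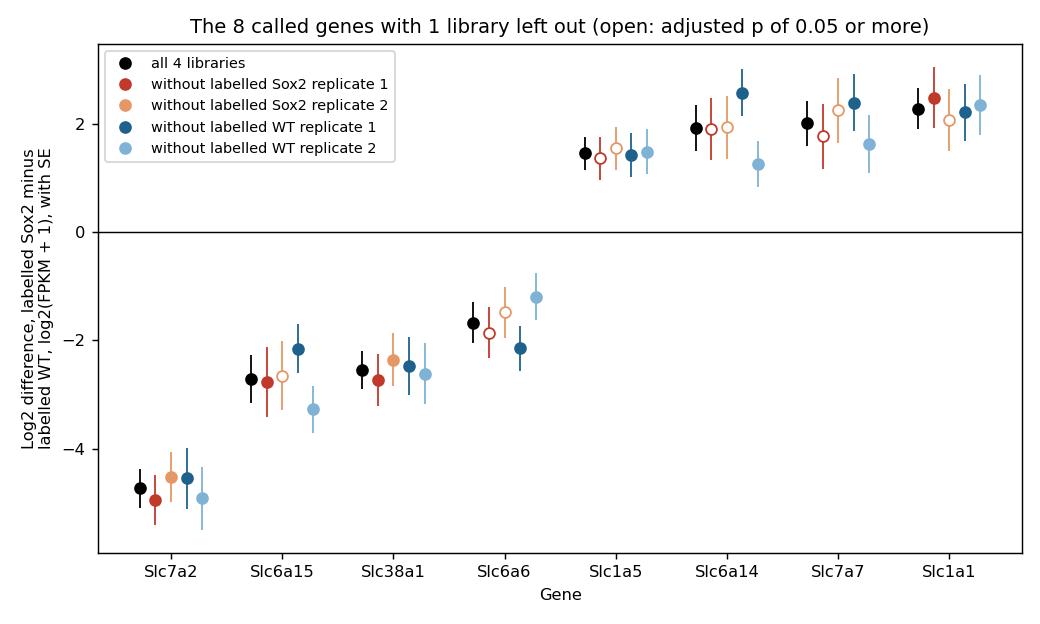
Log2 difference with its standard error for the 8 called genes, on the log2(FPKM + 1) scale, from all 4 libraries and with each library left out in turn; open points have an adjusted p of 0.05 or more. No difference changes sign. A filled point from a fit with a library left out is no support, because 1 label then holds a single library.

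Genes of amino acid metabolism outside these families were listed from textbook knowledge to set beside the carriers, and their counts read against the 4.20% of all tested genes called higher and the 8.11% called lower. Of 12 tested carriers from other families 1 was lower and 0 were higher in limma. The lower one, Slc25a13, the mitochondrial aspartate and glutamate carrier citrin, had 2.98 and 3.19 against 10.1 and 8.25 FPKM (adjusted p = 0.0460, limma). That call was lost with any 1 library left out (adjusted p from 0.0855 to 0.295, limma), under median-of-ratios rescaling (0.0517), under quantile normalization (0.0521) and with no filter (0.137). At an unadjusted p under 0.05 in limma there were 3 in this list. The share of all tested genes at that unadjusted p is not given here, so the 3 are not read as a result.

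Of 30 tested enzymes of amino acid synthesis and breakdown 8 were lower and 1 was higher, with a median log2 difference of -0.85 against -0.29 for all tested genes. Of all tested genes 8.11% were lower and 4.20% higher. The 8 became 3 when labelled Sox2 replicate 2 was left out, and 5 when replicate 1 of either label was. Phgdh, which opens the serine pathway from glycolysis, had 12.3 and 8.63 FPKM in libraries labelled Sox2 and 85.8 and 49.1 FPKM in libraries labelled WT (limma log2 difference -2.54, adjusted p = 0.00218). Shmt1, which interconverts serine and glycine, had 4.93 and 2.68 against 26.7 and 24.5 FPKM (limma log2 difference -2.50, adjusted p = 0.00266), a call lost without labelled Sox2 replicate 2 (0.0538). Bcat1, the cytosolic enzyme that deaminates branched-chain amino acids, had 0.0155 FPKM and a listed 0 against 4.90 and 13.3 FPKM (limma log2 difference -3.19, adjusted p = 0.00239). Bcat1 passed the filter only through the libraries labelled WT. The genes of dividing cells given above were lower too, the more common direction over all tested genes (976 called lower, 506 higher). The part of dividing cells in the enzyme values was not tested.

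Of 23 tested cytosolic aminoacyl-tRNA synthetases and their partners, which load amino acids onto tRNA, 2 were lower (8.11% of all tested genes) and 0 were higher, with 10 at an unadjusted p under 0.05 and a median log2 difference of -0.82. Vars, the valine enzyme, had 11.1 and 8.02 against 52.0 and 44.2 FPKM (limma log2 difference -2.23, adjusted p = 0.00255), and Eef1e1, a scaffold protein, had 10.2 and 5.70 against 29.3 and 19.5 FPKM (limma log2 difference -1.53, adjusted p = 0.0287). The call of Eef1e1 was lost without labelled Sox2 replicate 1 (adjusted p = 0.0540, limma) or 2 (0.30) or labelled WT replicate 1 (0.0784). The count of lower genes varied with the library left out and rose only without labelled WT replicate 2. All 31 genes of amino acid sensing through mTORC1 were tested, limma called 0 of them and 7 had an unadjusted p under 0.05. The share of all tested genes at that unadjusted p is not given here. The counts of 10 synthetases and 7 sensing genes are therefore not read as a result. The most abundant, Sec13, a shared subunit of the nutrient sensor GATOR2, had 46.7 and 32.4 against 66.6 and 42.1 FPKM.

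Of 19 tested genes of the ATF4 response to amino acid shortage 3 were higher and 2 lower in libraries labelled Sox2, where 4.20% and 8.11% of all tested genes were. The lower ones, Phgdh and Psat1, belong to the serine pathway and to the enzyme list as well. The higher ones were Vldlr, a lipoprotein receptor, at 6.51 and 5.06 against 1.48 and 0.246 FPKM (limma log2 difference 1.94, adjusted p = 0.0182), Nupr1, a stress-induced chromatin protein, and Ppp1r15a, a regulator of a phosphatase. Nupr1 had 45.6 and 32.9 against 16.6 and 8.92 FPKM (limma log2 difference 1.59, adjusted p = 0.0215). Vldlr averaged 0.862 FPKM in libraries labelled WT and passed the filter through those labelled Sox2. With either library labelled Sox2 left out, limma called 0 of the list higher, and without labelled WT replicate 2 it called 1.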

How the data were processed

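RNA of 4 sorted-cell libraries was analysed, 2 labelled Sox2 and 2 labelled WT by their titles. The deposited values are FPKM for each gene, bracketed by low and high confidence bounds, per the file headers. Per the submitters' processing notes the authors used TopHat2, Bowtie2, Cufflinks and Cuffdiff with mm10; versions, annotation and strandedness: not given in the sources used here. A further table of 2 group columns that no label ties to a group was not used. Entries (24490 per table) were added by symbol, and 1 gene with a failed value was left out. Start positions were raised by 1 to count from 1.

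Genes averaging 1 FPKM or more were tested with limma 3.58.1 in R 4.3.3 (lmFit, eBayes with trend) on log2(FPKM + 1), as a two-sided test, adjusted by Benjamini-Hochberg across 12040 genes. This scale understates the change of low genes. The procedure was tested on simulated data with random spread but no effect shared by the genes of a library, so that test does not cover such effects. The fit leaves 2 residual degrees of freedom. The genes and lists were chosen with earlier results of these data known. Named are every tested member, Sox2, and up to 3 called genes with the largest difference per related list (the most abundant where none passed); Ppp1r15a, Psat1 and Oxa1l were named after their values were seen. The values of 1 untested member are not reported here. Alternatives were a pseudocount of 0.1, no filter, 2 rescalings, a robust variance model, a block for the replicate number, and leaving out 1 library at a time.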

Additional observations from a re-analysis of the deposited data

How the results depend on the processing

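Depth is unknown and 2 libraries per label limit every test. With no filter on low values (genes at 0 in all libraries left out) limma called 0 members higher and 0 lower, 0 other carriers lower, 0 enzymes higher and 0 lower, 0 ATF4 response genes higher and 0 lower, 0 synthetases lower, and 0 and 3 of all genes. The pseudocount of 0.1 kept every count within 1.5 times. With 1 library left out, members higher ranged from 0 to 6 and lower from 2 to 4, other carriers from 0 to 1 higher and from 0 to 0 lower, enzymes from 0 to 2 higher and from 3 to 11 lower, ATF4 response genes from 0 to 4 higher and from 1 to 4 lower, synthetases from 1 to 13 lower, and all genes from 119 to 837 higher and from 115 to 1312 lower. Median-of-ratios rescaling gave 1 other carrier higher and 0 lower, 2 enzymes higher, 1 sensing gene higher, 5 ATF4 response genes higher and 1 lower, and 964 of all genes higher. Quantile normalization gave 1 other carrier higher and 0 lower, 2 enzymes higher, 2 sensing genes higher, 1 ATF4 response gene lower and 980 of all genes higher. The robust variance model gave 1 other carrier and 2 enzymes higher. The cause of these shifts was not tested. With 1 library left out, 1 label holds a single library, whose spread those counts do not measure.

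The replicate numbers are not tied to a litter or day by any label. With the replicate block 5 members were lower (Slc7a5 was added, adjusted p = 0.0169 in limma), 1 other carrier was higher and 2 lower, 3 enzymes higher and 16 lower, 2 sensing genes higher and 6 lower, 6 ATF4 response genes higher and 6 lower, 11 synthetases lower, and 1142 and 2730 of all genes higher and lower. Deviations of same-numbered libraries from their group means had a correlation of 0.23 over the 12040 tested genes.

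Members whose difference changed sign were all uncalled. Under median-of-ratios rescaling Slc36a1 (0.15), Slc38a6 (0.023) and Slc6a9 (0.14) turned positive, and under quantile normalization Slc36a1 (0.090) and Slc6a9 (0.11) did. With 1 library left out, the log2 differences ranged from -0.23 to 0.017 for Slc36a1, from -0.26 to 0.59 for Slc36a4, from -0.073 to 0.93 for Slc38a2, from -0.29 to 2.03 for Slc38a4, from -0.37 to 1.56 for Slc38a5, from -0.076 to 0.33 for Slc3a2, from -0.66 to 0.72 for Slc43a3 and from -0.37 to 0.066 for Slc6a9.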

Other observations

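Some members differed more between the replicate numbers than between the labels. Slc38a5 had 5.01 and 2.59 FPKM in the replicates numbered 1 and 0.578 and 0.156 FPKM in those numbered 2. Slc43a3 had 10.2 and 11.1 FPKM against 4.20 and 3.65 FPKM, and Slc36a2 had 1.07 and 0.661 FPKM against 0.00959 and 0.0659 FPKM. Slc7a10 and Slc6a4 were likewise higher in replicate 1 of both labels. Of the 28 tested members 16 (57.1%) were higher in replicate 1 of both labels, as were 65.5% of all tested genes. The summed markers of endothelial cells (202 and 50.8 against 136 and 18.3 FPKM) were also higher in replicate 1 of each label. So were those of leukocytes (134 and 64.2 against 63.4 and 30.7 FPKM) and mesenchymal cells (480 and 220 against 247 and 72.3 FPKM). AT2 (26647 and 6460 against 18516 and 1142 FPKM) and dividing cell (193 and 708 against 83.6 and 407 FPKM) sums were too. Club (3574 and 2071 against 6075 and 2354 FPKM) and red blood cell (273 and 74.0 against 1240 and 334 FPKM) sums were lower there. Those of AT1, ciliated and basal cells were mixed. The part of these cell types in the member values was not tested.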
